A study of Homo sapiens with 12 samples.

Results

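The enzymes that write DNA methylation and those that remove it were followed in HEK293T cells and in R1, a clone derived from HEK293T whose growth does not depend on methionine. The set holds 7 genes, chosen by symbol from the 23500 genes listed: DNMT1, DNMT3A, DNMT3B, UHRF1, TET1, TET2 and TET3. Each symbol has 1 entry, and all 7 were among the 17162 genes with enough counts to be tested. HEK293T is a human embryonic kidney line transformed with adenoviral DNA that also carries the SV40 large T antigen. Both lines were kept for 12 h in +Met medium, which holds methionine, or in −Met+Hcy medium, in which its precursor homocysteine replaces it, and total RNA was sequenced. Each of the 4 groups has 3 libraries. The titles of the R1 libraries name R1, although the cell line field gives HEK293T for every library. The labels do not say whether these came from separate cultures, so p-values measure only the spread between libraries. Because R1 is 1 clone, a difference between the lines cannot be told apart from a difference between this clone and other cells of the parental line.

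Cytosine methylation at CpG sites is copied after replication by DNMT1, which UHRF1 brings to hemimethylated DNA, and is set anew by DNMT3A and DNMT3B. TET1, TET2 and TET3 oxidise 5-methylcytosine, and the oxidised bases are then lost through replication or cut out by the glycosylase TDG and base excision repair. The methyltransferases draw their methyl groups from S-adenosylmethionine, which cells make from methionine, whereas the TET enzymes use 2-oxoglutarate and iron. The RNA data measure how much transcript of each gene was present, and neither enzyme activity nor DNA methylation was measured.

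The libraries held 12664158 to 18771349 estimated counts. R1 −Met+Hcy replicate 3 stood apart. Its deviation from the other 2 libraries of its group ran against the GC content of the genes, with a Spearman correlation of −0.74 across 11043 genes, whereas the same correlation was 0.60 and 0.73 in the 2 others and lay between −0.34 and 0.54 elsewhere. The common dispersion was 0.109 with that library and 0.0349 without it, so the tests of the 7 enzymes are given for the 12 libraries and for the other 11. Its PAX2 count of 53 lay within the 48 to 99 of its line and above the 3 to 19 of HEK293T. The markers set for HEK293T were present apart from SOX11, which had at most 1 count in a library. Summed markers of blood cells, endothelium and hepatocytes reached at most 3.885 CPM (the count of a gene relative to the total of its library), and those of fibroblasts 40.3 CPM, nearly all from COL1A1. Levels are given below as CPM from column sums. Fold changes come from edgeR with TMM scaling, whose factors were 0.828 to 0.882 in HEK293T in +Met and 0.930 to 1.12 in the other libraries. Scaling by column sums instead raised the median log2 fold change of all genes from 0.03 to 0.33 for the medium in HEK293T and from 0.02 to 0.37 for R1 against HEK293T in +Met, so fold changes in these comparisons lie below the ratio of the CPM values.

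In the GENCODE annotation of GRCh38, DNMT1 (ENSG00000130816) lies at chr19:10133342-10231286 on the minus strand, DNMT3A (ENSG00000119772) at chr2:25227855-25342590 on the minus strand, and the others on the plus strand, DNMT3B (ENSG00000088305) at chr20:32762385-32809359, UHRF1 (ENSG00000276043) at chr19:4903080-4962154, TET1 (ENSG00000138336) at chr10:68560337-68694487, TET2 (ENSG00000168769) at chr4:105145875-105279816 and TET3 (ENSG00000187605) at chr2:73984910-74108176. The bases before the start sites of DNMT3A, UHRF1 and TET2 are shown because these genes, of the 6 whose RefSeq window begins at the start of the GENCODE canonical transcript, were the ones called in HEK293T cells with the other 11 libraries. The windows hold 250 bases upstream in GRCh38.p14, and all 7 genes had at least 1 window. Capitals mark matches on either strand to the E2F motif (TTTCCCGC, TTTCGCGC, TTTGCCGC or TTTGGCGC), to the NF-Y motif CCAAT or to the GC box GGGCGG.
UHRF1 (chr19:4909251-4909500, plus strand): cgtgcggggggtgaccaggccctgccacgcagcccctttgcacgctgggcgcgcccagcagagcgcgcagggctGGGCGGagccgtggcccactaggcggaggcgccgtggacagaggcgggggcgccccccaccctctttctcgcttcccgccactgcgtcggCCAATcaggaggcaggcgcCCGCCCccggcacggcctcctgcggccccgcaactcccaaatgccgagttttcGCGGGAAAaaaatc
DNMT3A (chr2:25341926-25342175, minus strand): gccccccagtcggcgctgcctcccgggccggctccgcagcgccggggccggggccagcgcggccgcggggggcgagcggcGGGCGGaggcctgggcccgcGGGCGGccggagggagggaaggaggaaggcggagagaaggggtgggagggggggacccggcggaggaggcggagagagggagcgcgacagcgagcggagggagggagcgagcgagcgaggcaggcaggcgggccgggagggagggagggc
TET2 (chr4:105146626-105146875, plus strand): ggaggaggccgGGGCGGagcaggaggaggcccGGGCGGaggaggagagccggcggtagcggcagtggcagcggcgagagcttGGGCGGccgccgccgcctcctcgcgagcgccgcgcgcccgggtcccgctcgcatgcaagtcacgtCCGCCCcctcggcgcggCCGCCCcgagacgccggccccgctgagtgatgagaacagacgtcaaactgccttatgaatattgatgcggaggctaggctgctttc
The UHRF1 window holds 1 E2F match, which begins 14 bases before the start site, 1 CCAAT match and 2 GC boxes. The DNMT3A window holds 2 GC boxes and that of TET2 5, with neither an E2F nor a CCAAT match. Of 35116 such windows over all genes, 2.79% hold an E2F match, 32.0% a CCAAT match and 42.6% a GC box. None of the 7 windows used holds TGATGNAA, a motif of ATF4 and C/EBP factors, which occurs in 3.14% of all windows. CpG dinucleotides, the substrate of these enzymes, number 28 before UHRF1, 33 before DNMT3A, 34 before TET2, 37 before TET3, 21 before DNMT1 and 9 before TET1, against a median of 11. The only window for DNMT3B has 3 CpG and lies 17467 bases from the canonical start, so it is not shown.

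The maintenance enzymes were the most abundant of the 7 per length of transcript. In HEK293T cells in +Met, DNMT1 stood at 64.9 ± 9.74 CPM per kb (SD, n = 3) and UHRF1 at 44.1 ± 4.12, followed by DNMT3B at 8.55 ± 1.47, TET1 at 2.81 ± 0.62, TET2 at 2.34 ± 0.57, TET3 at 1.23 ± 0.36 and DNMT3A at 0.894 ± 0.016. TET1 and TET2 overlapped in this order, as did TET3 and DNMT3A, and the other neighbours did not. DNMT1, UHRF1 and DNMT3B kept the first 3 places in each of the 4 groups, with DNMT1 and UHRF1 overlapping in both R1 groups. Within every R1 library, DNMT1 was above UHRF1 by this length. With coding length in place of the length of the canonical transcript, UHRF1 stood above DNMT1 in every group but HEK293T in −Met+Hcy. Among the TET genes, TET1 was above TET2 in +Met in both lines and TET2 above TET1 in −Met+Hcy in both, and the libraries overlapped except in HEK293T in −Met+Hcy. Within single libraries this order held in every group but R1 in +Met, where replicate 2 had TET2 above TET1. By canonical transcript length DNMT3A was last of the 7 in each group but R1 in +Met, where it was above TET3 at 2.74 ± 0.76 against 2.66 ± 1.03 CPM per kb, with overlap. By coding length it was last in HEK293T in −Met+Hcy alone, and TET3 was last in the other groups. A bulk level is a mean over cells, so fewer expressing cells and less RNA per cell cannot be told apart.

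**Figure D1:**
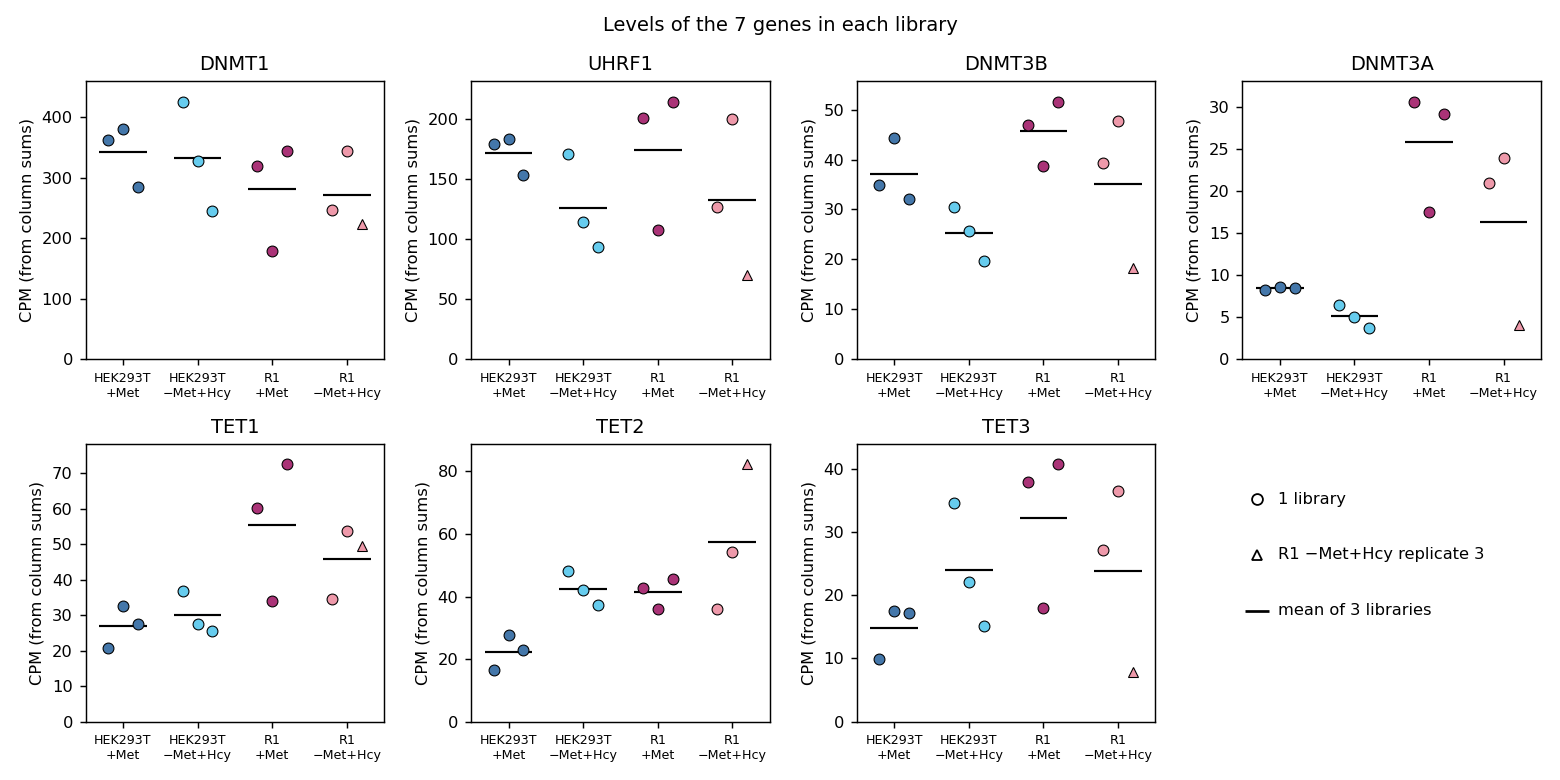
CPM from column sums of each of the 7 genes in the 12 libraries, by line and medium, on linear axes that start at 0. The triangle is R1 −Met+Hcy replicate 3, which is the lowest of its group for 5 genes and the highest for TET2, and the line is the mean of 3 libraries.

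The first question was how the enzymes' transcripts responded to −Met+Hcy medium in HEK293T cells, which depend on methionine. DNMT3A, DNMT3B and UHRF1 were lower and TET2 was higher in −Met+Hcy, and these 4 passed the test once R1 −Met+Hcy replicate 3 was left out. With all 12 libraries none of the 7 did. DNMT3A, a de novo methyltransferase, had 8.26, 8.56 and 8.45 CPM in +Met and 6.45, 5.05 and 3.68 in −Met+Hcy. All 3 libraries in −Met+Hcy were below all 3 in +Met, and the counts behind them were low, at 56 to 138. Its log2 fold change was −1.04 (SE 0.46, adjusted p = 0.209) with 12 libraries and −1.04 (SE 0.22, adjusted p = 0.00464) with 11.

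DNMT3B, the other de novo methyltransferase, had 34.9, 44.2 and 32.1 CPM in +Met and 30.5, 25.7 and 19.7 in −Met+Hcy, again without overlap. The log2 fold change was −0.85, with an adjusted p of 0.0795 with 12 libraries (SE 0.27) and 0.00270 with 11 (SE 0.17). UHRF1, which guides DNMT1 to hemimethylated CpG and whose promoter is printed above with its E2F match, had 179, 183 and 154 CPM in +Met and 171, 114 and 93.2 in −Met+Hcy. The groups overlapped on this scale and did not on the TMM scale. Its log2 fold change was −0.75, with an adjusted p of 0.196 (SE 0.33) and 0.0482 (SE 0.26) in the same 2 fits.

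TET2, which oxidises 5-methylcytosine, moved the other way. It had 16.6, 27.6 and 23.0 CPM in +Met and 48.0, 42.2 and 37.2 in −Met+Hcy, so that the lowest library in −Met+Hcy was above the highest in +Met. On the log2 scale the change was 0.63, with an adjusted p of 0.254 (SE 0.31) with 12 libraries and 0.0252 (SE 0.19) with 11. The 3 remaining genes did not pass in either fit. DNMT1, the maintenance methyltransferase, had 362, 381 and 284 CPM in +Met and 426, 328 and 244 in −Met+Hcy, with a log2 fold change of −0.34 and a 95% interval from −0.90 to 0.21. TET1 had 20.7, 32.7 and 27.7 CPM against 37.0, 27.6 and 25.5, with a log2 fold change of −0.14 (−0.77 to 0.48) that was 0.15 with column-sum scaling. TET3 had 9.89, 17.5 and 17.2 CPM against 34.6, 22.2 and 15.1, with a log2 fold change of 0.38 (−0.62 to 1.38). The media overlapped for all 3 of these genes.

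In edgeR's quasi-likelihood test with 12 libraries 0 of the 7 were called (3 at an unadjusted p under 0.05), where 7.03% of all genes tested were, and DESeq2 called 1, DNMT3B. With 11 libraries 3 of the 7 were called lower and 1 higher, against 12.5% and 15.2% of all genes and 27.7% in either direction. The fit of the 6 HEK293T libraries alone called the same 4 genes, with adjusted p-values of 0.00212 to 0.0129, where it called 34.2% of all genes. Of the 7, 2 were lower without overlap in CPM and 1 was higher, against 9.8% and 38.6% of all genes. On the TMM scale these were 3 and 1, against 20.6% and 24.8%. With the trend on GC content and transcript length removed and 11 libraries, the log2 fold changes of the 4 genes were −1.09 for DNMT3A, −0.90 for DNMT3B, −0.78 for UHRF1 and 0.51 for TET2.

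**Figure D2:**
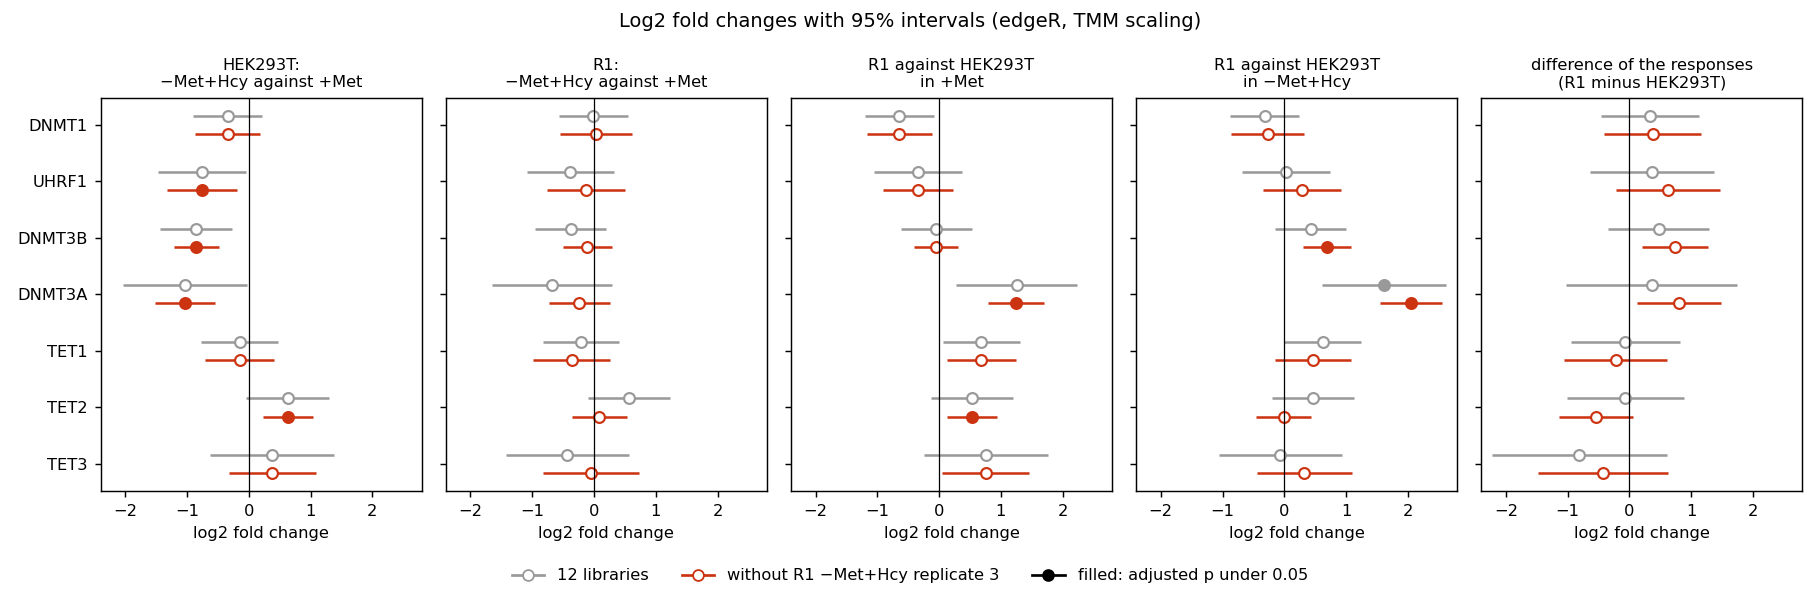
Log2 fold changes of the 7 genes with 95% intervals in the 5 comparisons, from the fit of 12 libraries (grey) and of the 11 without R1 −Met+Hcy replicate 3 (red), with filled points at an adjusted p under 0.05. In HEK293T the point estimates of the 2 fits coincide and the red intervals are narrower, and DNMT3A is the gene farthest to the right in both comparisons of R1 with HEK293T.

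In R1 cells, which proliferate in −Met+Hcy, none of the 7 genes passed the test, with or without replicate 3. DNMT3A had 30.6, 17.5 and 29.1 CPM in +Met and 20.9, 23.9 and 3.995 in −Met+Hcy. The last value is that of replicate 3, and the other 2 lie within the range of +Met. The log2 fold change was −0.68 (95% interval −1.65 to 0.29) with 12 libraries and −0.24 (−0.73 to 0.25) with 11. DNMT3B had 46.9, 38.7 and 51.6 CPM in +Met and 39.3, 47.8 and 18.2 in −Met+Hcy, and UHRF1 had 201, 107 and 214 against 127, 200 and 69.8. For both, replicate 3 was again the lowest of the 6 libraries. Their log2 fold changes with 11 libraries were −0.11 (−0.51 to 0.29) and −0.13 (−0.76 to 0.50).

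DNMT1 in R1 had 319, 179 and 344 CPM in +Met and 246, 343 and 223 in −Met+Hcy. This gave a log2 fold change of −0.01 (−0.57 to 0.55) and turned to 0.03 with 11 libraries. TET2 had 42.7, 36.0 and 45.5 CPM in +Met and 36.2, 54.2 and 82.3 in −Met+Hcy. Its log2 fold change was 0.57 (−0.10 to 1.23) with 12 libraries and 0.09 (−0.36 to 0.53) without replicate 3, the highest of the 12 libraries for this gene. TET1 had 60.1, 33.9 and 72.6 CPM against 34.6, 53.8 and 49.5, and TET3 had 37.8, 17.9 and 40.7 against 27.2, 36.5 and 7.83. The groups overlapped for all 7 genes, as they did for all but 10.1% of the genes tested. The test called 0.00583% of all genes with 12 libraries and 0.0176% with 11. None of the 7 had an unadjusted p under 0.05 in either fit, and DESeq2 called none. DNMT1, DNMT3A, DNMT3B, UHRF1 and TET3 have transcripts of 53.2 to 55.7% GC and in CPM were lower in replicate 3 than in the other 2 libraries of its group (for DNMT1 not on the TMM scale), whereas TET1 and TET2 have 42.1 and 41.2%. In replicate 3 TET1 lay between the other 2 libraries and TET2 above both. Whether GC content accounts for these levels was not tested. With 11 libraries and the trend on GC content and length removed, all 7 log2 fold changes lay between −0.37 and 0.06.

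Whether the responses differed between the lines was tested by the interaction of line and medium. None of the 7 genes passed with 12 libraries (0 at an unadjusted p under 0.05), where 0.0583% of all genes did, nor with 11 libraries (2 unadjusted), where 1.68% did. DESeq2 called none. The difference, R1 minus HEK293T, was 0.80 (95% interval 0.12 to 1.48, adjusted p = 0.221) for DNMT3A and 0.74 (0.21 to 1.27, adjusted p = 0.146) for DNMT3B with 11 libraries. For UHRF1 it was 0.63 (−0.22 to 1.47) and for TET2 −0.54 (−1.15 to 0.06). When the trend on GC content and length was removed as well, a choice made after the data were seen, DNMT3A (0.87, adjusted p = 0.0140) and DNMT3B (0.77, adjusted p = 0.0107) passed, both positive, where 3.75% of all genes did so and 8.53% in either direction. The calls in HEK293T and their absence in R1 thus do not show by themselves that the lines differ.

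The lines were next compared in the same medium. In +Met, DNMT3A was higher in R1, with 30.6, 17.5 and 29.1 CPM against 8.26, 8.56 and 8.45 in HEK293T. The lowest R1 library was above the highest of HEK293T. The log2 fold change was 1.25 (SE 0.45, adjusted p = 0.102) with 12 libraries and 1.25 (SE 0.21, adjusted p = 0.000834) with 11, and it was 0.73 (adjusted p = 0.000454) with the trend on GC content and length removed as well. TET2 was also higher in R1, with 42.7, 36.0 and 45.5 CPM against 16.6, 27.6 and 23.0 and no overlap. Its log2 fold change was 0.53, with an adjusted p of 0.298 with 12 libraries and 0.0443 with 11.

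The 5 other genes did not pass in either fit. TET1 had 60.1, 33.9 and 72.6 CPM in R1 against 20.7, 32.7 and 27.7 in HEK293T, and TET3 had 37.8, 17.9 and 40.7 against 9.89, 17.5 and 17.2. Both were without overlap in CPM by a narrow gap and overlapped on the TMM scale. Their log2 fold changes were 0.68 (adjusted p = 0.155) and 0.75 (adjusted p = 0.333) with 12 libraries, and 0.68 (adjusted p = 0.0590) and 0.75 (adjusted p = 0.0957) with 11. When the trend on GC content and length was removed in the 11 libraries, TET1 passed (0.46, adjusted p = 0.0439) and TET3 did not (0.21, adjusted p = 0.382). That fit called 39.4% of all genes. DNMT1 stood at 281 ± 89.4 CPM in R1 and 342 ± 51.4 in HEK293T (SD, n = 3), with a log2 fold change of −0.64 (95% interval −1.20 to −0.08, adjusted p = 0.136) that passed with the trend on GC content and length removed (−0.98, adjusted p = 0.00635). DNMT3B, at 45.7 ± 6.53 against 37.1 ± 6.37 CPM, had a log2 fold change of −0.05 that was 0.30 with column-sum scaling. With the trend removed in the 11 libraries it passed at −0.28 (adjusted p = 0.0475). UHRF1, at 174 ± 58.3 against 172 ± 16.0 CPM, had −0.34, which was 0.02 with column-sum scaling and which passed at −0.60 (adjusted p = 0.0404) with the trend removed. For DNMT1 and UHRF1 this was the fit of 12 libraries, whose share of all genes called is not given here.

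Of the 7 genes, 0 were called in +Met with 12 libraries (3 at an unadjusted p under 0.05, and 1, DNMT3A, by DESeq2), against 10.2% of all genes. With 11 libraries 2 were called, both higher in R1, against 17% of all genes and 32.7% in either direction. The fit of the 6 libraries in +Met alone called the same 2, where it called 30% of all genes. No overlap in CPM was seen for 4 genes, all higher in R1, against 38.1% of all genes. On the TMM scale 2 were higher and 1, DNMT1, was lower, against 22.2% and 20.7%. R1 +Met replicate 2 was the lowest R1 library in +Met for each of the 7 genes, and when it alone was left out TET1 passed (0.93, adjusted p = 0.0431).

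In −Met+Hcy, DNMT3A was again higher in R1 and was the single gene of the 7 called with 12 libraries. R1 had 20.9, 23.9 and 3.995 CPM against 6.45, 5.05 and 3.68 in HEK293T, so that replicate 3 of R1 lay among the HEK293T libraries and the other 2 were above all of them. The log2 fold change was 1.61 (SE 0.46, adjusted p = 0.0374), and 2.05 (SE 0.23, adjusted p = 6.81e-05) without replicate 3. The call with 12 libraries had an adjusted p close to the threshold. The call was lost on leaving out single libraries from every group, including HEK293T in +Met, which is outside this comparison. With 1 library left out it was lost in 10 of 12 fits, with adjusted p-values up to 0.143 (all but those without R1 +Met replicate 2 or R1 −Met+Hcy replicate 3), and it was lost in the fit of the 6 libraries in −Met+Hcy alone (adjusted p = 0.180), which called 3.01% of all genes. The log2 fold change stayed between 1.25 and 2.05 in the fits with 1 library left out.

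DNMT3B in −Met+Hcy had 39.3, 47.8 and 18.2 CPM in R1 against 30.5, 25.7 and 19.7 in HEK293T. Its log2 fold change was 0.43 (adjusted p = 0.309) and, without replicate 3 of R1, 0.69 (SE 0.18, adjusted p = 0.0130) with no overlap. The log2 fold changes of the other genes with 12 and 11 libraries were −0.31 and −0.27 for DNMT1, 0.03 and 0.28 for UHRF1, 0.62 and 0.46 for TET1, 0.47 and −0.01 for TET2, and −0.06 and 0.33 for TET3, none of which passed. TET2, called higher in R1 in +Met with 11 libraries, had 36.2 and 54.2 CPM in the 2 R1 libraries then left in −Met+Hcy, around the 37.2 to 48.0 of HEK293T. Called higher in R1 was 1 gene of the 7 with 12 libraries, against 7.2% of all genes and 14% in either direction, and 2 genes with 11 libraries, against 15.7% and 30.3%. With 12 libraries the groups overlapped for all 7, where 31.7% of all genes did not, and with 11 there were 2 genes higher in R1 without overlap, against 31.8%.

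Ratios of 2 of the genes within a library are free of the scaling, and pairs of like GC content were formed, with the pairs chosen after the values were seen. The pairs were not matched for transcript length, which is 9421 bases for DNMT3A and 12060 for TET3 against 4336 for DNMT3B. Whether a technical trend of a library remains in the ratios was not tested. UHRF1 had 0.481 to 0.541 counts per count of DNMT1 in HEK293T in +Met and 0.347 to 0.402 in −Met+Hcy, which did not overlap. In R1 the ratio was 0.601 to 0.629 in +Met, above all HEK293T libraries, and 0.516, 0.583 and 0.314 in −Met+Hcy. TET2 had 0.804 to 0.845 counts per count of TET1 in HEK293T in +Met and 1.30 to 1.53 in −Met+Hcy. In R1 it had 0.627 to 1.06 and 1.01 to 1.66, with replicate 3 the highest. DNMT3A had 0.187 to 0.263 counts per count of DNMT3B over the 6 HEK293T libraries, whose media overlapped, and 0.453 to 0.653 in R1 in +Met. In R1 in −Met+Hcy it had 0.532, 0.499 and 0.220, so that replicate 3 lay within the range of HEK293T. TET3 had 0.283 to 0.536 counts per count of DNMT3B in HEK293T in +Met and 0.769 to 1.13 in −Met+Hcy, with 0.431 to 0.807 over the 6 libraries of R1.

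**Figure D3:**
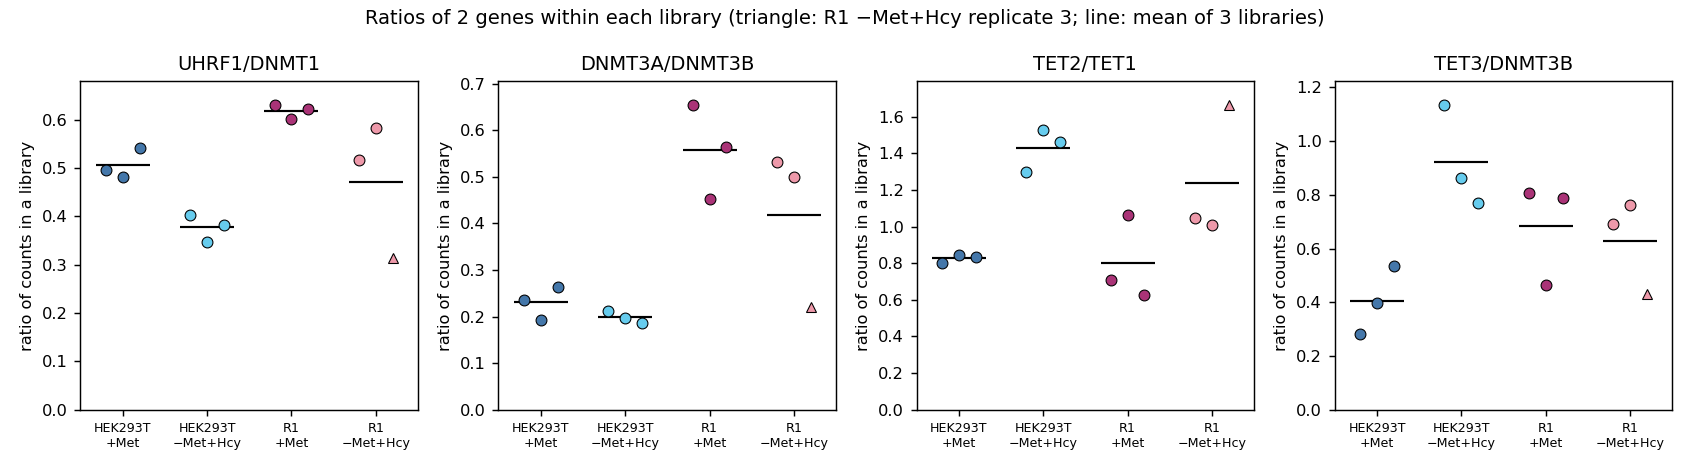
Ratios of the counts of 2 genes within each library, by line and medium, on linear axes from 0, with the mean of 3 libraries as a line and R1 −Met+Hcy replicate 3 as a triangle. UHRF1 per DNMT1, TET2 per TET1 and TET3 per DNMT3B separate the media in HEK293T, and DNMT3A per DNMT3B separates the lines apart from the triangle, which stands at 0.220. The pairs were chosen after the values were seen.

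Genes that work with the 7 enzymes were read from lists, with the log2 fold changes on the TMM scale. Among 9 partners of maintenance methylation in HEK293T, PCLAF, a PCNA-binding replication factor, fell by 1.55 on the log2 scale in −Met+Hcy (adjusted p = 0.0224), from 53.7 to 73.2 CPM in +Met to 19.4 to 32.6. ZBTB24, a regulator of CDCA7 that is mutated in a syndrome of DNA hypomethylation, rose by 0.85 (adjusted p = 0.0263), from 25.8 to 34.0 CPM to 54.8 to 81.5. With 11 libraries PCNA (−0.81, adjusted p = 0.0140) and HELLS (−0.50, adjusted p = 0.0254), the chromatin remodeller that assists maintenance, were called lower as well. Of the 9, 1 was called higher and 1 lower with 12 libraries, against 4.25% and 2.78% of all genes. With 11 libraries 1 was called higher and 3 lower, against 15.2% and 12.5%. The list's median was −0.09 against 0.03 for all genes. In R1 against HEK293T in +Met, ZBTB24 (−1.20), CDCA7 (−0.84) and PCNA (−0.94) were called lower with 12 libraries, where 4.48% of all genes were, and the median of the list was −0.40. With 11 libraries 4 were called lower and 1 higher, against 15.7% and 17% of all genes. For the lines in −Met+Hcy both fits called 1 higher and 3 lower. All genes stood at 7.2% and 6.76% with 12 libraries and at 15.7% and 14.6% with 11.

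The excision and repair list held calls in both directions. TDG, which cuts out oxidised methylcytosine, had 129, 141 and 165 CPM in HEK293T in +Met and 42.6, 48.4 and 52.8 in −Met+Hcy, a fall by 1.89 on the log2 scale (SE 0.31, adjusted p = 0.00559). GADD45A, a stress-induced gene that has been linked to active demethylation, rose by 1.41 (adjusted p = 0.00235) from 12.6, 11.2 and 9.92 to 37.2, 37.9 and 34.8 CPM. GADD45B rose by 1.41 (adjusted p = 0.0347). In R1, TDG had 116, 215 and 101 CPM in +Met and 130, 94.6 and 143 in −Met+Hcy, which overlapped. GADD45A in R1 had 19.8, 22.2 and 18.4 CPM in +Met and 15.1, 18.8 and 12.4 in −Met+Hcy. The difference of the responses was called for GADD45A (−1.76, SE 0.27, adjusted p = 0.0460, and −1.70, adjusted p = 0.00394, with 11 libraries). It was 1.71 for TDG (adjusted p = 0.258, and 0.0817 with 11 libraries), which DESeq2 called (1.72, adjusted p = 0.0223), as did the fit with the trend on GC content and length removed (1.45, adjusted p = 0.0154). GADD45B was called with 11 libraries (−1.46, adjusted p = 0.0338). Of the 12 genes of this list, 2 were called higher and 1 lower in HEK293T with 12 libraries, against 4.25% and 2.78% of all genes. The fit of 11 libraries called 2 higher and 2 lower, against 15.2% and 12.5%. The list's median was −0.06. In R1 against HEK293T, UNG, the uracil DNA glycosylase, and LIG3, the ligase of base excision repair, were called lower in both media with 12 libraries, UNG at −0.95 and −1.15 and LIG3 at −0.67 and −0.79. In +Met 2 of the list were called lower and 0 higher, against 4.48% and 5.69% of all genes. In −Met+Hcy 4 were called lower and 1 higher, against 6.76% and 7.2%. With 11 libraries 4 were lower and 2 higher in +Met, against 15.7% and 17%. In −Met+Hcy that fit called 5 lower and 3 higher, against 14.6% and 15.7%.

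Of the 7 genes that bind TET enzymes or set the supply of their substrate, IDH2, the mitochondrial isocitrate dehydrogenase that makes 2-oxoglutarate, was called in all 3 of these comparisons. It had 31.9, 26.8 and 26.8 CPM in HEK293T in +Met and 15.6, 16.7 and 15.7 in −Met+Hcy, and fell by 1.13 on the log2 scale (adjusted p = 0.00598). It was higher in R1 by 1.17 in +Met (adjusted p = 0.00283), at 70.5 to 91.2 CPM, and by 1.87 in −Met+Hcy (adjusted p = 0.000170). OGT, the O-GlcNAc transferase that binds TET proteins, was lower in R1, by −1.38 in +Met (adjusted p = 0.00149) and −0.94 in −Met+Hcy (adjusted p = 0.00824). IDH1 was called higher in R1 in −Met+Hcy (0.90, adjusted p = 0.0322). In −Met+Hcy 2 genes of this list were called higher and 1 lower with 12 libraries, against 7.2% and 6.76% of all genes. For the medium in HEK293T 1 was called lower, against 2.78%. The median of this list was −0.01 for the medium in HEK293T and 0.63 for R1 against HEK293T in +Met, against 0.03 and 0.02 for all genes. In +Met 1 gene of this list was called higher and 1 lower with 12 libraries, against 5.69% and 4.48% of all genes. The fit of 11 libraries called 5 higher and 1 lower, against 17% and 15.7%.

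Of 8 readers of methylated CpG, ZBTB38 rose by 2.04 on the log2 scale in HEK293T in −Met+Hcy (adjusted p = 0.00159), from 15.3, 20.8 and 20.2 to 106, 100.4 and 78.7 CPM, and ZBTB33 rose by 0.80 (adjusted p = 0.0459). Both are zinc finger proteins that bind methylated DNA. Called higher with 12 libraries were thus 2 of the 8, against 4.25% of all genes. The fit of 11 called 3 higher and 1 lower, against 15.2% and 12.5%. The list's median was −0.0048 and none of the 8 was called in the comparisons of the lines with 12 libraries, where 10.2% of all genes were in +Met and 14% in −Met+Hcy. With 11 libraries 2 were called higher in R1 in +Met, against 17% of all genes. In −Met+Hcy that fit called 1 higher and 3 lower, against 15.7% and 14.6%. Of the 27 S phase genes under E2F control, RRM2, a subunit of ribonucleotide reductase, and MCM6, of the replicative helicase, were called lower in HEK293T in −Met+Hcy with 12 libraries, by −0.85 and −0.53. That fit called 2.78% of all genes lower. With 11 libraries 10 were called lower and 1, GINS3, higher, against 12.5% and 15.2% of all genes. The median was −0.32 against 0.03 for all genes (0.04 with 11 libraries), and 18 of the 27 were below 0. The list also holds genes of the same cell cycle phase as UHRF1 and DNMT1, and whether the share of cells in S phase moved with them was not tested. In R1 against HEK293T in +Met, CCNE1 and RRM2 were called lower, where 4.48% of all genes were, and the median was −0.27. The fit of 11 libraries called 9 lower, against 15.7% of all genes. In R1 edgeR called no gene of any list for the medium with 12 or with 11 libraries, where it called 0.00583% and 0.0176% of all genes. ZBTB38 in R1 had 42.3, 29.2 and 39.1 CPM in +Met and 61.8, 64.9 and 96.9 in −Met+Hcy, without overlap, and was called by DESeq2 (1.10, adjusted p = 0.0349) and with the trend removed in the 11 libraries (0.72, adjusted p = 0.0324).

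**Figure D4:**
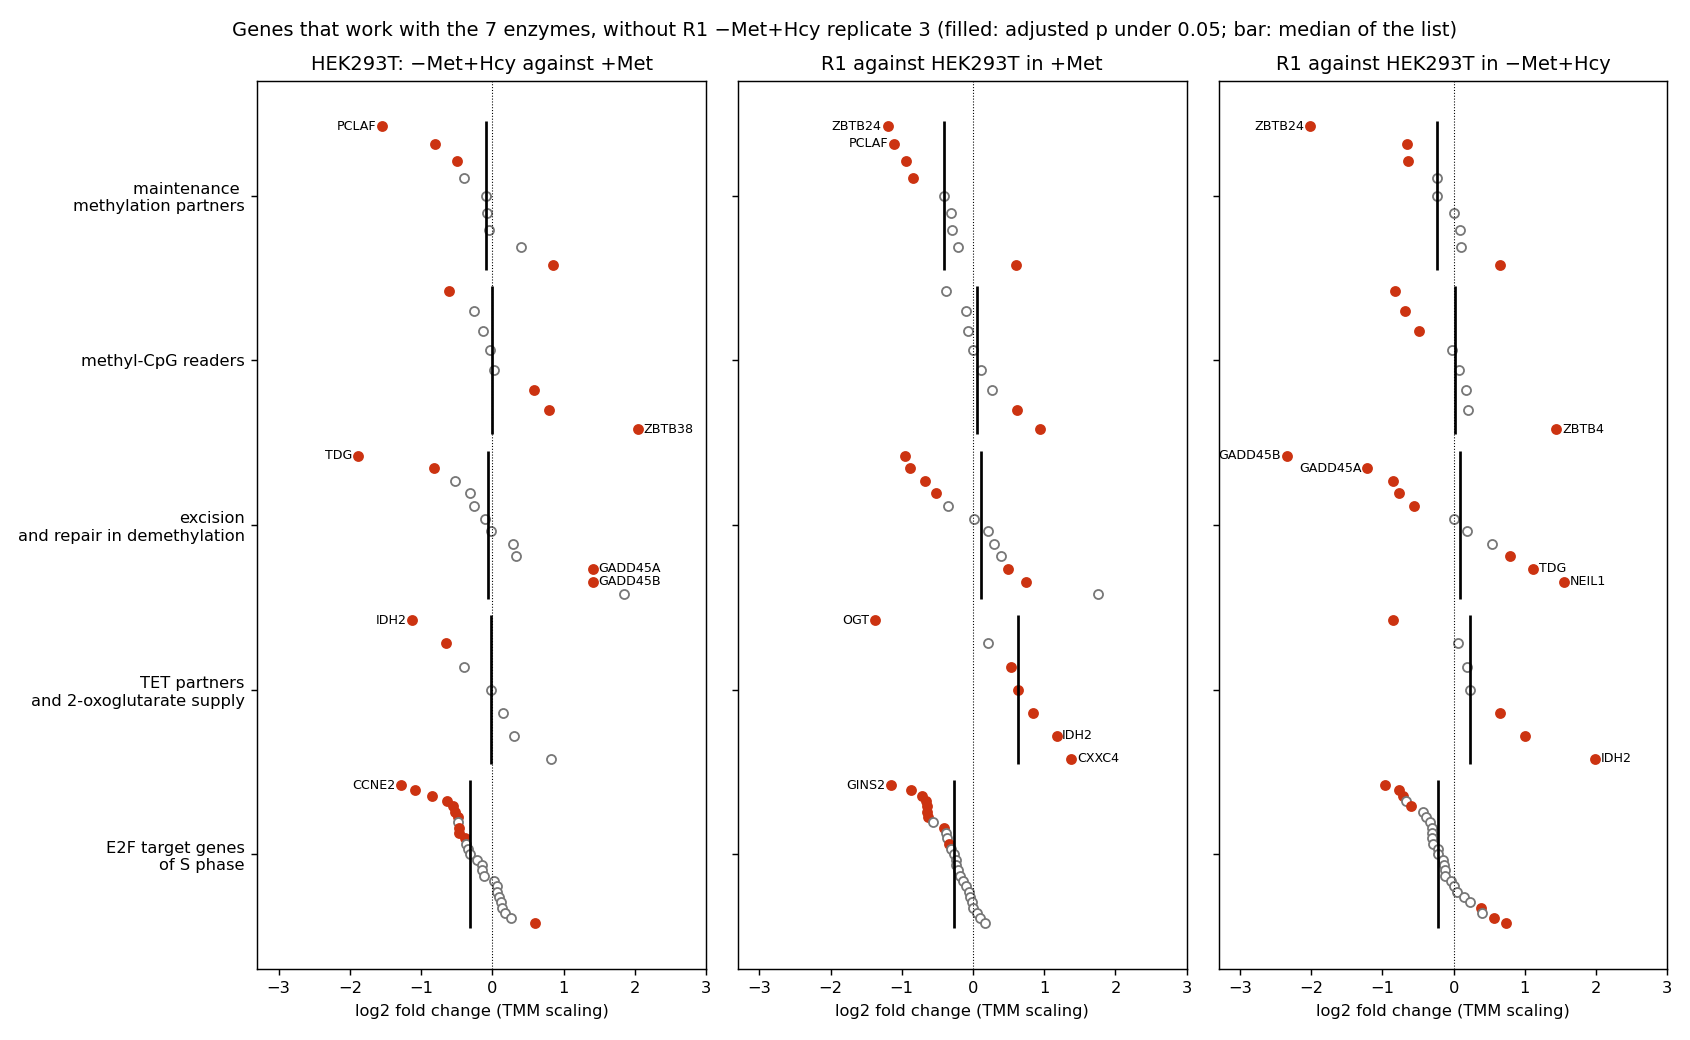
Log2 fold changes of the genes in 5 lists, from the fit of 11 libraries, with 1 point per gene, filled at an adjusted p under 0.05, a bar at the median of the list and names at some of the called genes past 1. TDG and ZBTB38 are the called genes farthest out in HEK293T, and IDH2 lies left of 0 there and right of 0 in both comparisons of R1 with HEK293T.

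Of 12 germline genes listed as silenced by promoter methylation in somatic cells, 7 had enough counts to be tested. None was called for the medium in HEK293T with 12 libraries. For MAEL the HEK293T libraries in −Met+Hcy held 5 to 11 counts, against at most 1 in any other library. It was called with 11 libraries in HEK293T (adjusted p = 0.0474) and for R1 against HEK293T in −Met+Hcy with 12 (adjusted p = 0.0278), on counts too few to give a fold. TEX15 was called lower in HEK293T with 11 libraries (−0.76, adjusted p = 0.0336). It had 328 to 1477 counts in each library and so was not silent in these cells. DNMT3L, a catalytically inactive cofactor of the de novo methyltransferases, had 1 count in all. TRDMT1, a relative of the DNA methyltransferases that methylates tRNA, was called with 11 libraries, lower in R1 in +Met (−1.15, adjusted p = 0.0112) and in −Met+Hcy (−1.03, adjusted p = 0.0372).

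The genes whose log2 CPM ran most like each enzyme were sought among 10965 genes over the 11 libraries, as a description of points that share depth and base composition. Nearest to DNMT1 were PELP1 (r = 0.97), HNRNPH2 (0.96) and SMARCA4 (0.96). Nearest to UHRF1 were TLE3 (0.99), HNRNPM (0.97) and FASN (0.97). DNMT3A ran with FAM234A, BIN1 and CACNA1H (each 0.99) and DNMT3B with ZC3H7A, DDX3X and PSMD1 (each 0.98). Among the nearest were UTRN and MAP3K9 for TET1 (0.97 and 0.96) and SSH2 and BBX for TET2 (0.96 and 0.95), and those of TET3 were NOTCH2, RAD54L2 and ABL2 (0.97, 0.97 and 0.96). With 12 libraries the nearest gene stayed the same for UHRF1 alone. Among the 7 themselves, the highest correlations over 11 libraries were TET1 with TET3 (0.83), DNMT3A with DNMT3B (0.78) and UHRF1 with DNMT3B (0.78), and TET2 had negative values with DNMT1 (−0.25), DNMT3B (−0.25) and UHRF1 (−0.27). These values rest in part on the library left out: with 12 libraries TET1 with TET3 had 0.38, UHRF1 with DNMT3B 0.85, DNMT3A with DNMT3B 0.82, and TET2 with DNMT3B −0.54 and with UHRF1 −0.57.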

How the data were processed

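Total RNA of HEK293T and R1 cells was sequenced in 12 libraries, 3 in each of 4 groups. Per the labels and the study's methods, the authors quantified reads with kallisto 0.48.0 on GRCh38 and deposited expected counts, estimated per transcript, summed per gene and converted to whole numbers, so reads shared between related transcripts were divided by a model. No strand setting is given in the sources used here. The 868 entries with no symbol were kept by identifier.

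From these counts, CPM was computed with column sums. Genes with a summed count of at least 10 (17162 of 23500) were tested with edgeR 4.0.16 in R 4.3.3 by the quasi-likelihood test, with TMM scaling, 1 model of the 4 group means (8 residual degrees of freedom) and Benjamini-Hochberg adjustment over all genes tested. A gene was called at an adjusted p under 0.05. Adjusted p-values in the text are of this kind unless DESeq2 1.42.0 is named. Intervals are 95%. Fits without R1 −Met+Hcy replicate 3 tested 17069 genes. The trend on GC content and transcript length was removed with loess offsets (span 0.3). Other alternatives were other scalings and filters, a replicate block, a robust spread and each library left out. The fits were tested on simulated data for the medium in HEK293T. There edgeR called 8 of 100 genes changed 1.5-fold and 69 of 100 changed 2-fold, and DESeq2 called 33 and 84. Of the unchanged genes edgeR called 6 and DESeq2 26. A gene that was not called may thus still have changed by 1.5-fold. Depth was 12664158 to 18771349 counts, and a low count such as that of DNMT3A carries more counting error.

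The genes named are the 7 enzymes, the 3 most like each, and from each list those called, chiefly the 3 that differed most. Some genes that this rule names are not reported here. The members, lists and tests were chosen with earlier results of these data known.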

Additional observations from a re-analysis of the deposited data

Results flagged for a closer look

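GADD45A, a stress-induced gene linked to active demethylation, stood out because its response to the medium differed between the lines by the test of the difference itself. Its level in −Met+Hcy against +Met rose by 1.41 on the log2 scale in HEK293T and had a log2 fold change of −0.36 in R1, a difference (R1 minus HEK293T) of −1.76 (adjusted p = 0.0460, edgeR's quasi-likelihood test). All 3 HEK293T libraries in −Met+Hcy were above all 3 in +Met.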

How the results depend on the processing

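The number of the 7 enzymes called for the medium in HEK293T, 0 with 12 libraries, was 1 with DESeq2, 4 with the libraries of the comparison alone, 3 with the trend on GC content and length removed, 0 to 4 with 1 library left out (4 without R1 −Met+Hcy replicate 3), 4 with DESeq2 and 5 with the trend removed when that library was also left out. For the lines in +Met, 0 with 12 libraries, it was 1, 2, 2, 0 to 2 (2 without R1 −Met+Hcy replicate 3, 1 without R1 +Met replicate 2), 4 and 6 in the same order, and 1 with column-sum scaling. For the lines in −Met+Hcy, 1 with 12 libraries, it was 0 with the libraries alone, 0 with the replicate block, 2 with the trend removed, 0 to 2 with 1 library left out, 2 with DESeq2 and 3 with the trend removed in the 11 libraries, and 0 with column-sum scaling. For the difference of the responses it was 2 with the trend removed in the 11 libraries. The fits of 11 libraries show how far the counts depend on R1 −Met+Hcy replicate 3, and the cause was not tested. The 11-library fits with DESeq2 or the trend removed, and column-sum scaling, were chosen after seeing the data. Many genes passed in these fits. With the trend removed in the 11 libraries, 38.1% of all genes were called for the medium in HEK293T. For the lines it was 39.4% in +Met and 39% in −Met+Hcy, and for the difference 8.53%. DESeq2 with 12 libraries called 13% for the medium in HEK293T, and 16.8% and 20.6% for the lines. For DESeq2 with 11 libraries and for the trend removed in 12, the share of all genes called is not given here. Their counts of enzymes called thus have no background beside them.

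The replicate numbers did not pair the libraries (same-number correlations −0.72 to 0.60, 3 of 12 libraries nearest to their own number). With the replicate block none of the 7 was called, and DNMT3A in −Met+Hcy had 1.54 (adjusted p = 0.0640).

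Of 35 log2 fold changes, 14 changed sign under an alternative and 21 did not. With column-sum scaling TET1 was 0.15 for the medium in HEK293T, DNMT3B 0.30 and UHRF1 0.019 for the lines in +Met, and DNMT1 −0.012 for the difference. For the medium in R1, DNMT1 was 0.34 with the trend removed, and 0.021 with DESeq2 and 0.027 with the trend removed in the 11 libraries, where TET3 was 0.022 with the trend removed. For the lines in −Met+Hcy in the 11 libraries, TET2 was −0.018 with DESeq2 and −0.077 with the trend removed, and TET3 0.32 with DESeq2. With 1 library left out, the values that changed sign ranged from −0.24 to 0.15 (DNMT1) and −0.45 to 0.018 (TET1) for the medium in R1, from −0.13 to 0.06 (DNMT3B) for the lines in +Met, from −0.35 to 0.28 (UHRF1), −0.0098 to 0.75 (TET2) and −0.47 to 0.33 (TET3) for the lines in −Met+Hcy, and from −0.00083 to 0.80 (DNMT3A), −0.0066 to 0.63 (UHRF1), −0.31 to 0.16 (TET1) and −0.54 to 0.21 (TET2) for the difference.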
